A study of Mus musculus with 2 samples.

Results

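The 9 genes described here mark Kupffer cells, the resident macrophages of the liver sinusoid, and were followed in liver sinusoidal endothelial cells (LSEC) from a wild-type and an ob/ob mouse. They are Timd4, Vsig4, Cd5l, Marco, Cd163, Spic, Csf1r, Aif1 and Cd68. Their probes were found by gene name among the non-control spots of the wild-type array and taken at the same spots of the ob/ob array, which gave 11 probes of 39429 and 9 genes of 31881 genes and unnamed transcripts. Each genotype was represented by 1 male mouse of 8 weeks and 1 array. The ob/ob mouse lacks functional leptin and becomes obese, and no treatment or transgene was named for either mouse. Both livers were digested with collagenase, and the cells of both were kept overnight in DMEM with 10% FBS before total RNA was taken. With 1 array per genotype there was no replicate, no test was run, and each difference compares these 2 arrays.

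Kupffer cells sit inside the sinusoid against the endothelium, clear particles, bacteria, complement-coated material and dying cells from portal blood, and recycle iron from aged red cells. They arise in the embryo, renew locally and depend on signalling through the receptor Csf1r, and monocytes can replace them when they are lost. Timd4 binds phosphatidylserine on dying cells and is known as a marker of the embryonically derived resident cells, whereas Aif1 and Cd68 mark macrophages of many origins. Because the cells share the sinusoid and both take up particles, an LSEC preparation can hold Kupffer cells. In such bulk RNA a change in the number of cells of a type and a change in RNA per cell cannot be told apart.

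Signals are the background-subtracted processed intensities of the scanner software. Differences are ob/ob minus wild-type in log2 after each array was divided by its 75th percentile (989 and 1430), so a difference of 1 is 2-fold. A probe was measured on an array where it was flagged well above background, which held for 58.6% of wild-type and 64.8% of ob/ob spots. LSEC identity was checked on 16 sinusoidal endothelial markers, which were all measured on both arrays and all within 2-fold, with a median of -0.18 (-0.46 with scaling on the array median, where 1 was 2-fold lower). The inhibitory Fc receptor Fcgr2b gave signals of 21600 and 26900. Over all genes measured on both arrays the median difference was -0.12, with the middle 50% between -0.34 and 0.16. Scaling on the array median in place of the 75th percentile changes every difference by -0.28, so medians between 0 and 0.28 turn negative with it.

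Most of the Kupffer cell markers were higher on the ob/ob array, by very unequal amounts. Of the 9 genes, 8 were measured on both arrays and Cd163 on neither. Of these 8, 6 reached a 2-fold higher level, 0 a 2-fold lower one and 2 stayed between, where 5.82% and 2.29% of the 18135 genes measured on both arrays did so. The median over the 8 was 1.30, which lies 1.42 above the median of all genes. Past 4-fold lay 3 of the 8, where 1.81% of all genes did, and the same 3 lay past 8-fold, where 0.524% did. The balance of all genes depended on the scaling, with 1055 higher and 415 lower as reported, 766 and 977 with scaling on the array median, and 369 and 3818 after normexp background correction with the 75th percentile. In that normexp setting the members' median stood 1.54 above that of all genes.

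**Figure D1:**
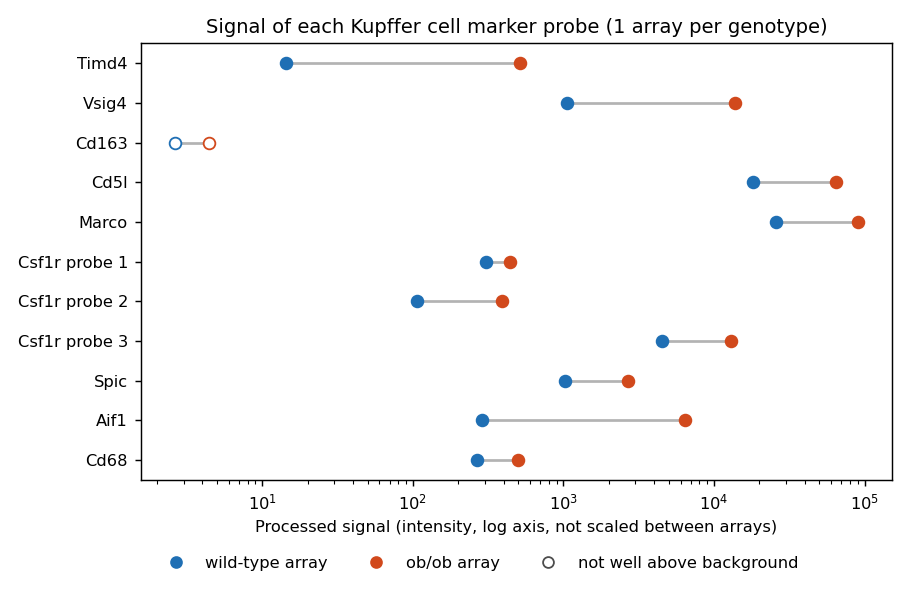
Processed signal of the 11 probes of the 9 genes on the wild-type (blue) and ob/ob (orange) arrays, on a log axis and before scaling between arrays; each point is 1 spot, open points were not well above background, and the Csf1r probes are numbered from the 5′ end of the transcript. The lines of Timd4, Vsig4 and Aif1 are the longest, Cd163 stays at background on both arrays, and the Csf1r probes differ from each other.

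Timd4, the phosphatidylserine receptor, had the largest difference of the 8 as reported, but not after normexp correction. Its probe (mm9 chr11:46657173-46657232, plus strand) gave a signal of 14.4 on the wild-type array, close to the dimmest signal called well above background there (12.3), and 517 on the ob/ob array. The difference was 4.63, or 24.8-fold, with an SD of 0.35 from the scanner's error model, and 7 of the 18135 genes had a larger one. The size of this value rests on how the dim wild-type spot is treated, since it was 1.06 after normexp correction scaled on the 75th percentile and 1.89 after normexp and quantile normalization, which add an offset of 50 to every signal. Aif1 and Vsig4 were above it in both of these settings, and Cd5l, Marco and Csf1r were above it in the first.

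Vsig4, the complement receptor that binds C3b-coated particles, was bright enough on both arrays to be little affected by that choice. Its probe (mm9 chrX:93442598-93442657, minus strand) gave 1050 and 13900, a difference of 3.20 or 9.16-fold with an error-model SD of 0.20. Over the 9 other settings it lay between 2.92 and 3.30. Only 62 genes, or 0.342%, had a larger difference.

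Cd5l and Marco had nearly the same difference. Cd5l, a secreted scavenger receptor cysteine-rich protein also called AIM, gave signals of 18200 and 65000 (mm9 chr3:87174823-87174882, plus strand), a difference of 1.31 or 2.47-fold. Marco, a class A scavenger receptor for bacteria and particles, gave 25800 and 90900, a difference of 1.29 or 2.44-fold, and the coordinates of its probe in the file (mm9 chr1:122371115-122371134, minus strand) cover 20 of its 60 bases. Both have an error-model SD of 0.20, and no non-control spot was saturated on either array. Over the 9 other settings Cd5l lay between 1.03 and 1.64 and Marco between 1.01 and 1.64, so both stayed past 2-fold, narrowly with scaling on the array median.

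The haemoglobin scavenger receptor Cd163 gave signals of 2.62 and 4.45, which were not called well above background, so no fold is given. Its only probe (mm9 chr6:124270436-124270495, plus strand, starting at base 2610 of the transcript) is shown because this negative result rests on it alone.
Cd163 probe, chr6:124270436-124270495, plus strand: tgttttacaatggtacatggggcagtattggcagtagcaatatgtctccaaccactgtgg

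The receptor Csf1r, which binds the growth factors Csf1 and Il34 and keeps macrophages alive, was covered by 3 probes that disagreed. The probe nearest the 3′ end, which represents the gene (mm9 chr18:61290725-61290784, plus strand, base 3806 of the transcript), gave 4490 and 13000, a difference of 1.002 or 2.002-fold. The file of the ob/ob array writes signals with 3 digits, and within that rounding the difference lies between 0.996 and 1.007, so this probe does not settle on which side of 2-fold Csf1r falls. The probe at base 2871 (mm9 chr18:61289398-61289758) gave 107 and 390, a difference of 1.34. The probe at base 1841 (mm9 chr18:61278661-61278720) gave 304 and 445, a difference of 0.02. The gap of the last probe to the other 2 is wider than the SD of 0.33 between probes of 1 gene, which was taken over 3693 genes with more than 1 measured probe. With the mean of the 3 probes Csf1r was at 0.79 and with scaling on the array median at 0.72, and in each of these settings 5 rather than 6 of the 8 genes were at least 2-fold higher.

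Spic, the Ets-family transcription factor of iron-recycling macrophages, was within 2-fold. Its probe (mm9 chr10:88138053-88138112, minus strand) gave 1020 and 2690, a difference of 0.87 or 1.83-fold with an error-model SD of 0.20. It lay between 0.59 and 0.87 over the 9 other settings.

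The markers shared by many macrophages, Aif1 and Cd68, stood far apart. Aif1, the actin-binding protein also known as Iba1, gave signals of 288 and 6460 (mm9 chr17:35307959-35308018, minus strand), a difference of 3.96 or 15.5-fold with an error-model SD of 0.20. It ranged from 3.37 to 3.96 over the other settings, and 15 genes had a larger difference. Cd68, a heavily glycosylated protein of late endosomes and lysosomes, gave 265 and 498, a difference of 0.38, which became -0.09 with normexp and the 75th percentile, where the median of all genes was -0.29. Of all genes, 14.7% had a larger difference than Cd68. Its only probe starts at base 443 of the transcript and is shown because the smallest difference of the 8 rests on it. The probe was not set against the exons of Cd68. How well it reads the spliced transcript was therefore not tested, and the low signals and small difference may not give the level of Cd68.
Cd68 probe, chr11:69478979-69479038, minus strand: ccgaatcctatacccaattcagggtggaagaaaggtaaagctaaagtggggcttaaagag

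Ordered by difference, the 8 genes fell into 2 ranges. Timd4, Aif1 and Vsig4 lay at 3.20 and above, with gaps of 0.68 and 0.76 between neighbours, and the next gene, Cd5l, lay 1.89 lower than Vsig4. After normexp correction the upper range held Aif1 and Vsig4 without Timd4, which lay nearer to the lower genes, at 1.06 or 1.89. From Cd5l through Marco and Csf1r to Spic, neighbours differed by 0.02, 0.28 and 0.13, less than the SD of 0.33 between probes of 1 gene. Cd68 lay 0.49 below Spic. Each gene except Csf1r has 1 probe, so for 7 of the 8 the spread between probes could not be measured. The local background at the 11 probes was 58.0 to 70.0 in the wild-type and 55.0 to 66.0 in the ob/ob scan, against array medians of 63.0 and 60.0, and none of the 11 spots was flagged as uneven or as an outlier. The median difference of the measured spots within 4 rows and columns of each probe lay between -0.25 and -0.08.

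**Figure D2:**
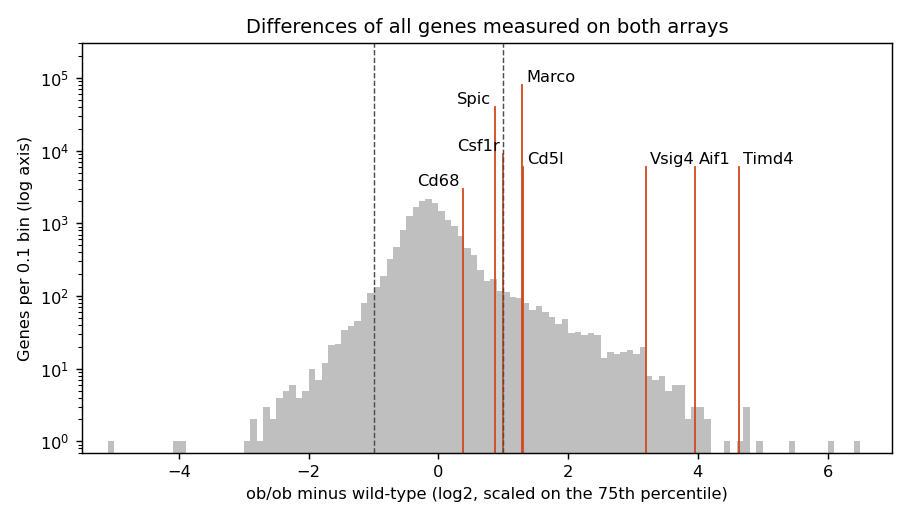
Number of genes per 0.1 of the ob/ob minus wild-type log2 difference (grey bars, log axis) over the 18135 genes measured on both arrays; orange lines mark the 8 Kupffer cell markers and dashed lines 2-fold. Timd4, Aif1 and Vsig4 lie in the right tail at 4.63, 3.96 and 3.20, while Cd68 at 0.38 lies beside the bulk of genes, whose median is -0.12.

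The sequences upstream of the members were set side by side because 5 of them were at least 2-fold higher in the reported setting and have an entry in the promoter table. These 5 are shown over the 250 bases before the RefSeq start (GRCm38.p6, 5′ to 3′ on the strand of the gene), with GAGGAA, the core of the box bound by PU.1 and Spi-C, or its reverse complement TTCCTC in capitals. Of the 9 genes 8 matched the table, all except Csf1r.
Timd4 upstream, chr11:46810549-46810798, plus strand: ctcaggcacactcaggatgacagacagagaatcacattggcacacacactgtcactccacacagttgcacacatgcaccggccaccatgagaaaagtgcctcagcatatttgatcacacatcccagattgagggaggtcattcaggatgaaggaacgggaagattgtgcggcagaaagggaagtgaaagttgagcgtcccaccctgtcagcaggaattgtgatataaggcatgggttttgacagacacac
Vsig4 upstream, chrX:96293439-96293688, minus strand: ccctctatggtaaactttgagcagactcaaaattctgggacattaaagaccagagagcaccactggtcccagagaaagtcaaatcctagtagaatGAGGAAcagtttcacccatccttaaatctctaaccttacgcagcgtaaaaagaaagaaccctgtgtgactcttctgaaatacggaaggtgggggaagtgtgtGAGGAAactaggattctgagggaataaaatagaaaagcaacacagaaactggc
Aif1 upstream, chr17:35176053-35176302, minus strand: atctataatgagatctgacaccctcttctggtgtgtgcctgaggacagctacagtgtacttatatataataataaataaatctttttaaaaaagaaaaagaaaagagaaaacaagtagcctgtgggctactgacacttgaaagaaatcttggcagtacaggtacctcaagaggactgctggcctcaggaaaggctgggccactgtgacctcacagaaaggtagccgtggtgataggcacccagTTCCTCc
Cd5l upstream, chr3:87357631-87357880, plus strand: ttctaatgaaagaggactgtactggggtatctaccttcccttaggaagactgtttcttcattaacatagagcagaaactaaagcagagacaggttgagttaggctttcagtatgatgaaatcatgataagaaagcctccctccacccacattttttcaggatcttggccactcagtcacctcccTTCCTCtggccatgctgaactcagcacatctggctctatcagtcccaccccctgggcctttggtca
Marco upstream, chr1:120505025-120505274, minus strand: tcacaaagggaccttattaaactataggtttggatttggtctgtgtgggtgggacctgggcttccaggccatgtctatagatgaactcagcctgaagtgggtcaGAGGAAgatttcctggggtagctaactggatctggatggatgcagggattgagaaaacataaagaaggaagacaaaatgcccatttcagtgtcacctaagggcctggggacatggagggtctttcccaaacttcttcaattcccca

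A match to GAGGAA on either strand stood in 5 of the 8 upstream sequences, those of Vsig4, Aif1, Cd5l, Marco and Cd68, where 23.3% of the 32851 sequences of this length in the table hold one. Vsig4 held 2 matches, starting 155 and 53 bases before the start, as did 3.54% of the table with 2 or more. Aif1 held TTCCTC 7 bases and Cd5l 66 bases before the start, and Marco held GAGGAA 146 bases before it. The sequence of Timd4 held no match, nor did those of Spic and Cd163. A match describes these letters only, and binding was not measured.

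Other genes known from Kupffer cells gave a mixed picture. Of 18 on the list, 17 were measured on both arrays, with 10 higher by 2-fold or more, 2 lower and 5 between and a median of 1.23 (0.95 with scaling on the array median). Among genes picked after their values were seen, the lectin Clec4f, used as a defining Kupffer cell gene in mice, was at 1.51 with signals of 1880 and 7720, and the complement subunits C1qa, C1qb and C1qc were at 2.78, 2.45 and 2.49. The lectin-like receptor Clec1b was at -0.32, from -0.36 to -0.28 over its 3 probes.

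The lower genes on that list handle haem and iron, a task of Kupffer cells. The iron exporter Slc40a1 gave 22500 and 9960, a difference of -1.71, and the haem oxygenase Hmox1 gave 99500 and 63600, a difference of -1.18 (-0.98 by its other probe). Of the 17 haem and iron genes 16 were measured on both arrays, with 5 higher by 2-fold or more, 4 lower and 7 between, and a median of -0.19. With quantile normalization 1 was 2-fold lower and the median was 0.03, and with normexp and quantile normalization 1 was lower and the median was 0.04. The other two lower genes, picked after their values were seen, were the biliverdin reductase Blvrb at -1.19 and the haem transporter Slc48a1 at -1.14. All 4 kept a negative difference in the scaling and background settings, with Slc40a1 between -1.99 and -1.47 and Hmox1 between -1.46 and -0.76. The ferritin heavy chain Fth1 was at -0.50. The largest on the list was the plasma ferroxidase Cp at 3.20, which was 0.85 in the lowest setting. The haem and haemoglobin carriers Hpx at 3.08 and Hp at 2.89, made by hepatocytes and picked after their values were seen, stood beside a hepatocyte list with 13 of 15 markers at least 2-fold higher.

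The ligands of Csf1r and other genes of colony-stimulating factors and related receptors were unequal too. The list is wider than Csf1r signalling and holds factors and receptors of other systems, such as Csf2 and Csf2ra. Of 15 genes on the colony-stimulating factor list 14 were measured on both arrays, with 5 higher by 2-fold or more, 0 lower and 9 between and a median of 0.23 (-0.05 with scaling on the array median), and 3 were higher after normexp correction with either scaling. Csf1, the main ligand of the receptor, gave 13800 and 20700, a difference of 0.05 by the probe that represents it, and its 3 probes ranged from -0.69 to 0.05. Over the scaling and background settings the gene lay between -0.23 and 0.29. Il34, the other ligand, gave 78.1 and 383, a difference of 1.76 that was 0.22 at its lowest. The adaptor Dok2 was at 2.63, the alpha chain of the GM-CSF receptor Csf2ra at 2.01 and the phosphatase Ptpn6 at 2.01. GM-CSF itself, Csf2, was dim at 21.1 and 96.8, and its difference of 1.69 became -0.79 in the lowest setting, so its direction was not settled. Grap was at -0.56 and the receptor Csf3r at -0.24.

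Transcription factors of macrophages stood near the median of all genes. Of 19, 16 were measured on both arrays, with 2 higher by 2-fold or more, 0 lower and 14 between and a median of -0.05. One of them was Nr1h3, the liver X receptor alpha that macrophages use in cholesterol handling and that is known to control Cd5l, at 2.10. The macrophage factor PU.1, encoded by Spi1, gave 5.05 in wild-type cells, not well above background, and 32.1 in ob/ob cells, which is at least 1.80-fold brighter. Spib was likewise at least 2.50-fold brighter, from 4.88 to 44.6. Cebpb was at -0.05 and Bach1, the haem-binding repressor of Hmox1, at -0.63.

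Genes of phosphatidylserine recognition, like Timd4, and scavenger receptors, like Marco and Cd5l, had medians nearer to that of all genes than the members had. Of 16 genes of phosphatidylserine recognition and uptake of dying cells, 12 were measured on both arrays, with 2 higher by 2-fold or more, 1 lower and 9 between and a median of -0.23. The 2 were the receptor kinase Axl at 1.74 and the Timd4 relative Havcr2 at 1.25, which was -0.70 in its lowest setting. The lower gene was Cd300lf at -1.45, whose probes ranged from -1.45 to 1.87, and the bridging protein Mfge8 was at -0.51. Of 16 scavenger receptors and scavenger receptor cysteine-rich proteins 10 were measured on both arrays, with 2 higher, 0 lower and 8 within 2-fold and a median of 0.22. A further 3 were well above background in ob/ob cells alone and 2 in wild-type cells alone. With normexp and the 75th percentile 2 were lower. The 2 higher genes of the reported setting were Msr1, the class A receptor related to Marco, at 2.63, and Cd6 at 1.09. Msr1 was at 2.02 and Cd6 at -1.09 in its lowest setting. Colec12 was at -0.96 and Lgals3bp at -0.37.

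Among genes of complement, its receptors and its regulators, most were higher. The list is wider than the C3 products that Vsig4 binds, and it shares C1qa, C1qb and C1qc with the other Kupffer cell genes. Of 18 measured on both arrays 12 were 2-fold or more higher, 0 lower and 6 between, with a median of 2.03 (all genes -0.12). With normexp and the 75th percentile the median was 1.15 with 11 higher and 2 lower, and with normexp and quantile normalization it was 1.54. The integrin chain Itgax was at 3.54 and 1.14 in its lowest setting, and the ligand of Vsig4, C3, which hepatocytes and macrophages make and which was picked after its value was seen, was at 3.12. The membrane regulators Cd59a at -0.55 and Cd55 at -0.39 were at the lower end. Itgam, a chain of the complement receptor CR3, was at -0.08 by the probe that represents it and at 2.85 by its other probe.

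Macrophage genes outside the Kupffer cell set were higher in 10 of 21 genes measured on both arrays, with 0 lower, 11 within 2-fold and a median of 0.94. They ran from Itgam at -0.08 to the high-affinity Fc receptor Fcgr1 at 3.20 (2.05 in its lowest setting), with the protease Lgmn at 0.12. With normexp and the 75th percentile 7 of these macrophage genes were 2-fold higher and 1 lower, with a median of 0.67. Of 13 monocyte genes with a probe 7 were measured on both arrays, with 2 higher by 2-fold or more, 0 lower and 5 between and a median of 0.12 (-0.16 with scaling on the array median). They ran from Vcan at -0.06 to S100a4 at 3.83 (1.84 in its lowest setting), with Plac8 at 0.49. With normexp and the 75th percentile 2 of the 7 were 2-fold lower. A further 5 monocyte genes were well above background in ob/ob cells alone. Among these, picked after their values were seen, Chil3 (signals of 12.8 and 2040) was brighter by at least 110-fold in the reported setting. F13a1 (3.01 and 203) was brighter by at least 11.4-fold there. Both wild-type signals were not well above background, and the bounds were not computed after normexp correction. The monocyte chemokine receptor Ccr2, with signals of 3.21 and 17.5, was too dim for a fold. Of the 9 Kupffer cell markers none was measured on 1 array alone.

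**Figure D3:**
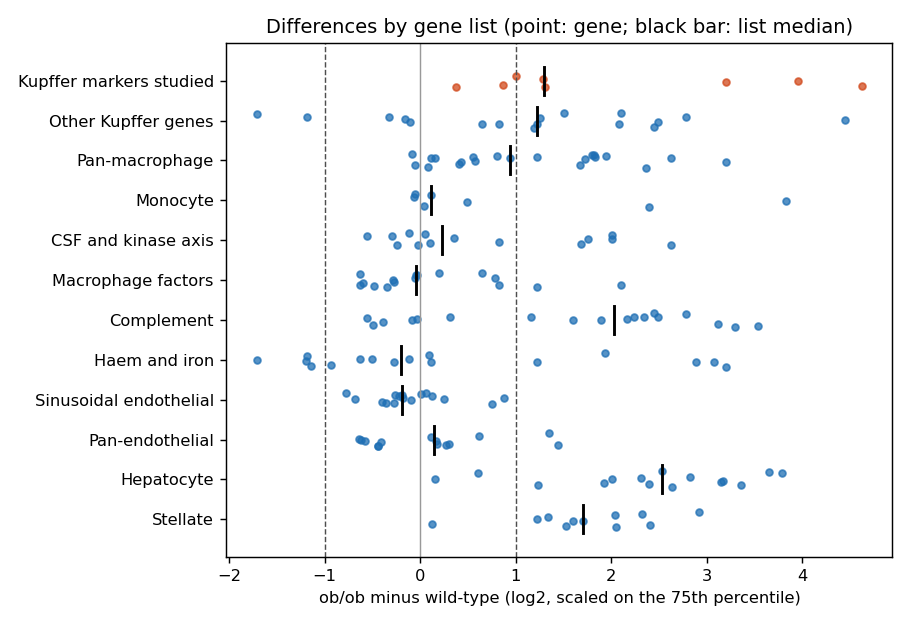
Difference ob/ob minus wild-type in log2 of each gene measured on both arrays, by gene list, with the list median as a black bar and 2-fold as dashed lines. The 8 Kupffer cell markers (orange) have a median of 1.30, the hepatocyte and stellate lists medians of 2.53 and 1.71, and the sinusoidal endothelial list a median of -0.18.

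Markers of hepatocytes and stellate cells were higher on the ob/ob array as well. Of 15 hepatocyte markers 13 were 2-fold or more higher, 0 lower and 2 between, with a median of 2.53, from Apoa1 at 0.16 to Cyp3a11 at 3.79, and Serpina1a at 2.01. Of 11 stellate cell markers measured on both arrays 10 were higher, 0 lower and 1 within 2-fold, with a median of 1.71 (0.35 with normexp and the 75th percentile), from Lum at 0.13 to Col3a1 at 2.92, and Dcn at 2.05. In that normexp setting 2 stellate markers were 2-fold higher. For the hepatocyte markers it gave 10 higher and 2 lower, with a median of 1.82. In their lowest settings Cyp3a11 was at 1.59 and Col3a1 at 0.91. Summed over the genes measured on both arrays and expressed in units of the 75th percentile, the hepatocyte markers gave 9.78 for wild-type and 55.3 for ob/ob cells, the stellate markers 9.54 and 37.2, and the 8 Kupffer cell markers 51.7 and 135. Most of the sum of the 8 came from Cd5l and Marco on both arrays. The sum over the 17 other Kupffer cell genes went the other way, with 165 and 123. Most of its wild-type value came from Hmox1 alone, with signals of 99500 and 63600. By count, 10 of these 17 genes were at least 2-fold higher and 2 were lower, so this sum does not describe the list as a whole. Each sum is compared only with itself on the other array. The part of the other cells in the differences of the Kupffer cell markers was not tested. Of 14 pan-endothelial markers 2 were higher, 0 lower and 12 within 2-fold, with a median of 0.14 (-0.14 with scaling on the array median), from Esam at -0.64 to Vwf at 1.44, and Egfl7 at -0.58. The sinusoidal endothelial markers ran from Bmp2 at -0.77 to Tek at 0.88. Of 14 lymphocyte markers 5 were measured on both arrays and 0 of these lay beyond 2-fold (Nkg7 -0.19, Cd79b 0.41), although 2 were lower with normexp and the 75th percentile. A further 3, picked after their values were seen, were well above background in ob/ob cells alone, with Gzmb brighter by at least 8.8-fold, Cd3d by at least 6.44-fold and Cd3g by at least 2.01-fold. These bounds, like those of the neutrophil markers below, hold for the reported setting only. Of 12 neutrophil markers 4 were measured on both arrays, with 2 lower, Mpo at -1.32 and Elane at -1.01, and Ly6g at 0.08. The number lower rose to 4 with normexp and the 75th percentile, whereas normexp followed by quantile normalization left 0. Another 5 neutrophil markers, picked after their values were seen, were well above background in ob/ob cells alone, with Mmp8 brighter by at least 9.3-fold, S100a9 by at least 5.77-fold, S100a8 by at least 2.77-fold, Mmp9 by at least 2.75-fold and Ltf too dim for a fold. Retnlg was measured in wild-type cells alone and was brighter there by at least 1.85-fold. Erythroid markers had 2 measured on both arrays, Slc4a1 at -0.42 and Epor at 0.19.

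**Figure D4:**
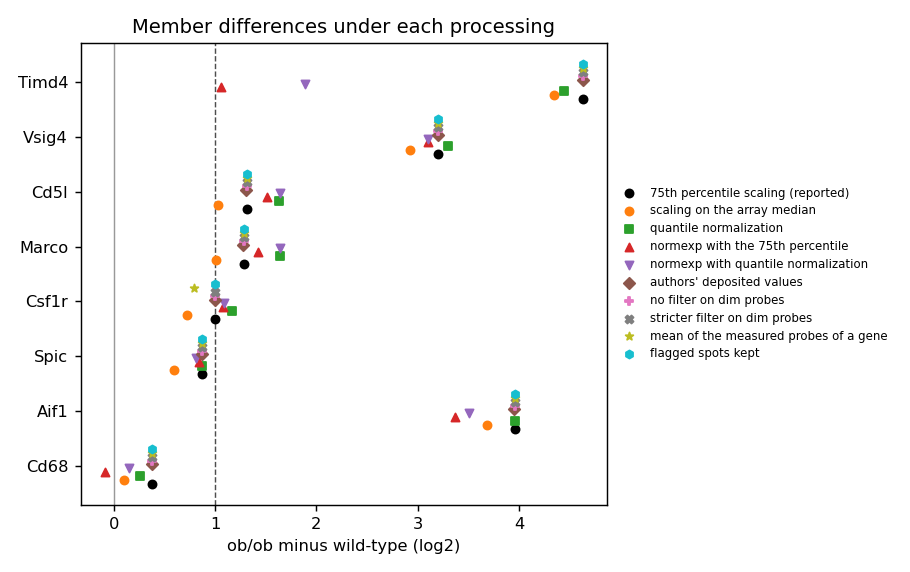
Difference ob/ob minus wild-type in log2 of the 8 Kupffer cell markers measured on both arrays under 10 ways of processing; each symbol is 1 setting and the dashed line marks 2-fold. Vsig4, Aif1, Cd5l, Marco and Timd4 stay right of 2-fold in all 10, although Timd4 moves from 4.63 to 1.06. Csf1r lies on both sides, and Cd68 crosses 0.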

How the data were processed

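Per the file headers and the labels' protocols, Cy3-labelled RNA of each mouse was hybridised to 1 one-colour Agilent mouse array, both on the same slide and scanned together. The authors deposited the scanner output, a linear intensity for every spot. Per the file headers, Agilent Feature Extraction 11.0.1.1 subtracted background, removed spatial trends and gave spots at background a substitute signal, without scaling between arrays. The authors' deposited table gives, as a ratio, the processed intensity over the 75th percentile of its array (implied 989 and 1430, column medians 0.614 and 0.647), uncentred, and served as an alternative.

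From these, log2 processed signal minus log2 of the 75th percentile over 43020 non-control spots was computed. Flagged spots were dropped, spots of a probe averaged, and a gene represented by its probe with the highest mean among measured probes, a probe counting as measured where over 50% of its spots were well above background. Where 1 array was below background, a bound was computed against the higher of the dimmest measured signal (12.3 and 11.7) and the probe's own. These bounds belong to the reported setting and were not computed after normexp correction, whose offset lowers the folds of dim spots. Symbols were updated through RefSeq accessions (26157 of 39429 probes, GRCm38.p6, names only), and 56 gene names that differ in the ob/ob file were taken from the wild-type file. Upstream sequences are from RefSeq, build GRCm38.p6; no genome or mm9 annotation was used here, so exon and UTR positions of the probes are not given.

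With 1 array per genotype no test was run, and precision is limited by the number of arrays. The technical spread had a median SD of 0.05 over 257 probes spotted at least 8 times, 0.20 from the error model and 0.33 between probes of a gene; none holds the spread between mice. The members and lists were chosen with earlier results of these data known. Named are all members, the largest, smallest and brightest gene of each list, and every gene at least 2-fold different on the colony-stimulating factor, transcription factor, phosphatidylserine and scavenger lists; other genes are marked as picked after their values were seen, and some genes that the rule names are not reported here. No gene is named as alike in pattern, since 2 arrays give 1 difference per gene. The calculation was tested on simulated data. Python 3.11.15, R 4.3.3 and limma 3.58.1 were used.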

Additional observations from a re-analysis of the deposited data

How the results depend on the processing

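Alternatives were scaling on the array median, quantile normalization, normexp on the mean and local background signals (offset 50) with the 75th percentile or with quantile normalization, the authors' deposited values, no filter or a stricter filter on dim probes, the mean of a gene's probes, and flagged spots kept. The count of Kupffer cell markers at least 2-fold higher was 5 or 6 in these 9, and 3 at a 4-fold threshold. Their median difference was 1.64 after normexp with quantile normalization and 1.02 when scaled on the array median. The count of all genes at least 2-fold higher was 369 with normexp and the 75th percentile, 508 with normexp and quantile normalization and 2679 with no filter on dim probes, and 329 at 4-fold. Of 72 single-gene values, 65 moved by less than the SD of 0.33 between probes and 7 by more. The 7 were Timd4 (1.06 and 1.89), Aif1 (3.37 and 3.51), Marco (1.64 with either quantile setting) and Cd68 (-0.09). All came from quantile or normexp settings. Most of the 65 could not move further by construction. The filters, flagged spots and authors' values left the members nearly unchanged, and the probe mean could change only Csf1r. Scaling on the array median shifted each by -0.28. The 65 are therefore no measure of stability. For the normexp settings the offset, which lowers the folds of dim spots, is part of the construction, and for the unfiltered setting the larger number of genes counted; otherwise the cause was not tested. No paired analysis was possible because each group holds 1 array, and slide and scan could not enter as a block because both arrays share them. Signal over background limits Timd4 on the wild-type array and Cd163 on both.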

Other observations

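Lists next to the Kupffer cell markers showed further differences. Cd5l is a target of liver X receptors, and of 10 other targets 3 were 2-fold or more higher, 0 lower and 7 between, with a median of 0.42, running from Srebf1 at -0.31 to the desaturase Scd1 at 3.76, with Apoe at 0.32. Cd68 belongs to the lysosomal membrane glycoproteins, and of 11 lysosomal genes measured on both arrays 1 was higher, the acid lipase Lipa at 1.02 (under 2-fold in the other scaling and background settings), 0 were lower and 10 were within 2-fold, with a median of -0.39, the protease Ctsd at -0.97 and Cd63 at -0.41. Of 11 dendritic cell genes measured on both arrays 4 were 2-fold or more higher, 0 lower and 7 between, with a median of 0.69, from Siglech at -0.37 to the chemokine receptor Ccr7 at 4.11.

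The data hold 1 mouse per genotype, so no difference can be set against the spread between mice or between cell preparations. Most members rest on 1 probe. The cells were cultured overnight, and no sort or marker selection of the cells was named in the labels. The ob/ob array holds more signals above background, and the number of Kupffer cells in either preparation was not measured.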
